A study of Bos taurus with 23 samples.

Results

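The 5 libraries of an immortalized bovine cell line sampled after 165 days in culture fell into a pair, replicates 1 and 2, and a group of 3, replicates 3, 4 and 5. The sets were found on the first principal component of gene expression within these 5 of the 23 libraries of the series. GEO's labels do not separate them, and all 5 library names carry the same tag, 2D. Because the same expression values chose the sets, every difference between them is given here as a description, without a test. All libraries are Bos taurus, Holstein, bulk 3′ RNA-seq (MARS-Seq) of mesenchymal stem cells from umbilical cord. The line came from primary WJ cells by transient transfection of a plasmid that encodes SV40 large T antigen, so both sets share 1 line, its founder cells and the plasmid. The groups used for reference were the same line at 21 days (9 libraries, 5 tagged AM and 4 tagged FBS) and untreated primary cells at 12 days (3 libraries, 2 tagged WJ and 1 tagged BUC) and at 50 days (6 libraries, 3 tagged WJ and 3 tagged BUC). What these tags stand for is not given in the labels and was not assumed. The labels do not say whether the 165-day libraries came from separate cultures, so their spread may be technical.

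Mesenchymal stem cells are matrix-producing stromal cells that divide in culture for a limited time before they stop. The large T antigen of SV40 disables the p53 and retinoblastoma proteins, which normally restrain division, and cells that carry it can keep dividing. Bulk RNA-seq averages over all cells of a sample, so a smaller share of cells with a transcript and less transcript per cell cannot be told apart. Genes are identified here by Ensembl ID only. None of the 16094 IDs could be paired with a name, so the marker genes of mesenchymal cells were not checked, and gene groups are described by level and pattern.

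Depth differed between the sets. Replicates 1 and 2 held 7979762 and 3753231 counts, and replicates 3, 4 and 5 held 13540302, 13373118 and 9512217. Both libraries of the first set were shallower than every library of the second set. Values at equal depth, after each library was randomly thinned to 1840606 counts (the smallest total of the series), are therefore given beside several of the main ones. Counts of genes by abundance or by range, and the levels of single genes, are at full depth. The TMM scaling factors, which correct for differences in RNA composition, were 0.882 and 0.897 in the first set and 0.971 to 1 in the second.

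Replicates 3, 4 and 5 were close to each other, whereas replicates 1 and 2 differed from them and also from one another. On the first component of log2 CPM (the count scaled to a common library total), which held 69.8% of the variance, replicates 1 and 2 had scores of 34.5 and 54.3. Replicates 3, 4 and 5 had scores of -32, -27.7 and -29.2. The gap between the sets, from 34.5 to -27.7, was 72.1% of the whole range of scores. The second component, with 18.5% of the variance, had scores of 33.5 in replicate 1 and -25.6 in replicate 2, and of -2.92 to -2.32 in the other libraries. Only the second set was thus a compact expression state, since the libraries of the first set lay far apart on the second component.

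**Figure D1:**
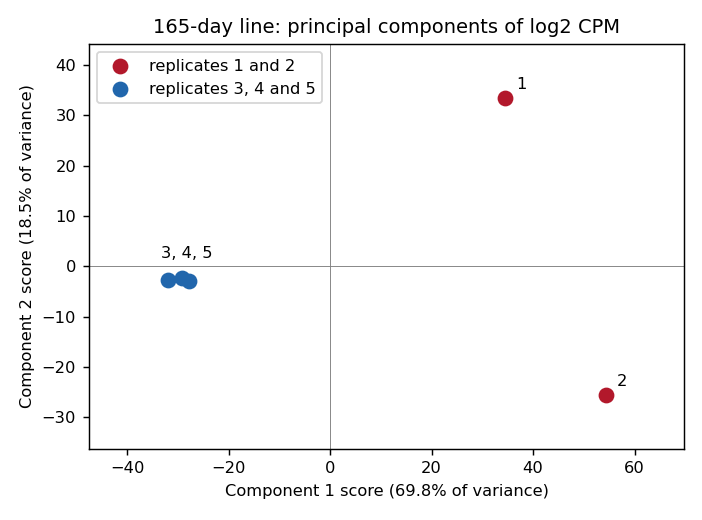
Scores of the 5 libraries of the 165-day line on the first (x axis) and second (y axis) principal components of log2 CPM, 1 point per library. Replicates 3, 4 and 5 lie together at -32 to -27.7 on the first component, and replicates 1 and 2 lie at 34.5 and 54.3 and on opposite sides of the second component.

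Comparison of all 10 pairs of libraries gave the same order. Of the 11489 genes that passed the low-count filter, 113 to 169 were at least 2-fold apart in a pair within replicates 3, 4 and 5 (0.984%, 1.47% and 1.32% of genes). Replicates 1 and 2 were at least 2-fold apart in 1007 genes (8.76%). Across the sets, replicate 1 was at least 2-fold from replicates 3, 4 and 5 in 13.6%, 12.1% and 12.8% of genes. Replicate 2 was at least 2-fold from them in 19.8%, 17.9% and 18.5%. Replicate 1 was therefore nearer to replicate 2 than to the second set, and replicate 2 was the library furthest from the second set.

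The contrast between the sets in their inner spread was smaller at equal depth. Replicates 1 and 2 were then at least 2-fold apart in 10.4% of genes, against 5.16% to 6.71% for pairs within the second set and 14.3% to 18.4% for pairs across the sets. The 3 kinds of pair kept their order. Rank correlation across genes at equal depth was 0.964 to 0.965 within the second set, 0.955 between replicates 1 and 2, and 0.943 to 0.948 across the sets. The measures that follow in this paragraph were taken at full depth. The biological coefficient of variation, an estimate of the spread beyond counting noise, was 6.52% among replicates 3, 4 and 5, 17.4% between replicates 1 and 2, and 24.2% over all 5 libraries. The share of counts that would have to be moved between genes to make 2 libraries equal was 2.92% to 3.96% within the second set, 7.05% between replicates 1 and 2, and 11% to 14.1% across the sets. Chi-square per degree of freedom was at least 3.36 in the 10 pairs, with the least for replicates 4 and 5. No pair agreed within counting noise, and each library was counted once.

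**Figure D2:**
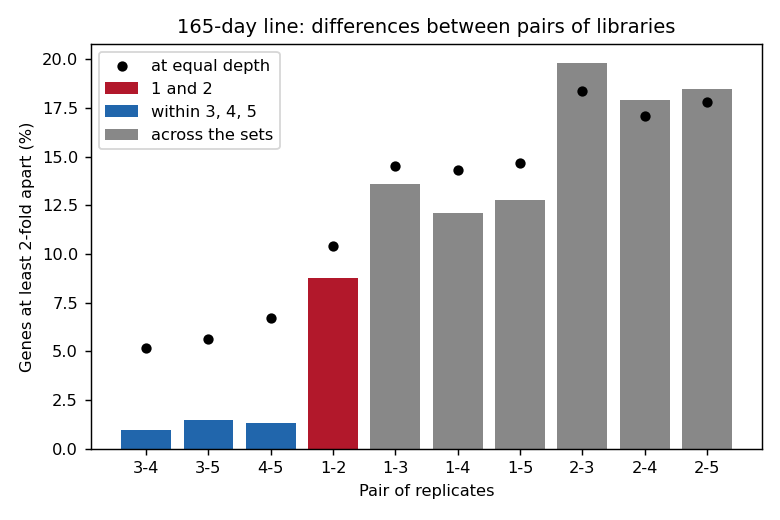
Percentage of genes at least 2-fold apart (y axis) in each pair of replicates of the 165-day line (x axis), as bars for the full counts and black points at equal depth. Bars are 0.984% to 1.47% within replicates 3, 4 and 5, 8.76% for replicates 1 and 2, and 12.1% to 19.8% across the sets.

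A gene was called different between the sets where the mean log2 CPM differed by at least 1, a fold of 2, and every library of a set lay outside the range of the other. By this measure 444 genes were higher in replicates 1 and 2 (3.86% of the 11489) and 968 were lower (8.43%). Because the sets were chosen on these values, these percentages describe the split and do not measure its strength. The median log2 difference was 1.34 among the higher genes and -1.3 among the lower genes. A fold of at least 4 was found in 86 higher and 89 lower genes (0.749% and 0.775%), and a fold of at least 8 in 20 and 10 (0.174% and 0.087%). The excess of lower genes was thus seen at a fold of 2 and not at a fold of 4.

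Of the libraries left out in turn, replicate 1 moved the number of higher genes most. Without it 672 genes were higher and 1369 were lower. Replicate 2, the shallowest of the 165-day libraries, then stood alone for the first set. With all 5 libraries and overlap allowed, 462 genes were higher and 996 lower. The cause of the rise without replicate 1 was not tested. Without replicate 2, where replicate 1 stood alone, 464 genes were higher and 876 were lower. At equal depth 378 genes were higher and 758 lower, of which 284 and 579 were also called at full depth. With scaling by library totals alone 329 were higher and 1267 lower, and the median log2 difference over all genes moved from -0.022 to -0.16. The higher genes made up 31.4% of the called genes with TMM and 20.6% with library totals, so the balance of directions is relative to the scale. No gene called with TMM was called in the opposite direction under any of the scalings.

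**Figure D3:**
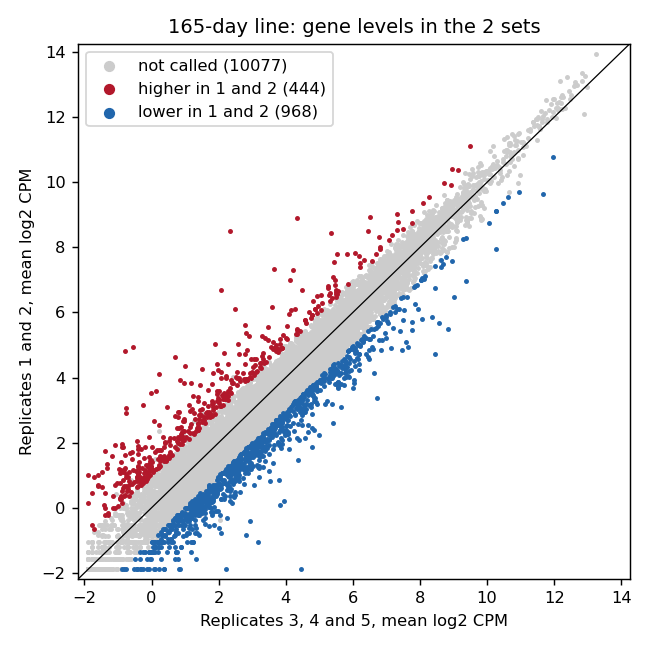
Mean log2 CPM of each of the 11489 genes in replicates 3, 4 and 5 (x axis) and in replicates 1 and 2 (y axis), 1 point per gene, with the line of equal levels in black. Genes called higher in replicates 1 and 2 (444, red) and lower (968, blue) lie along both sides of the line, and the most abundant genes lie close to it.

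Replicates 1 and 2 took part in the split to unequal degrees. Among the 968 lower genes, replicate 2 was the further of the pair from the second set in 692 (71.5%), with a median log2 distance of -1.49, against -1.17 for replicate 1. Among the 444 higher genes this was so in 252 (56.8%), with medians of 1.49 and 1.32. Over all 11489 genes, both replicates lay above the range of replicates 3, 4 and 5 in 3221 genes (28%) and below it in 3480 (30.3%). They lay on opposite sides of that range in other genes, with replicate 1 above and replicate 2 below in 678 and the reverse in 745. Opposite positions were almost always small in size. With a margin of at least 2-fold beyond the range for each replicate, both were above in 213 genes, both below in 361, and on opposite sides in 1. Some genes left the range by that margin in a single library while the other replicate stayed inside it. For replicate 1 there were 8 above and 29 below, and for replicate 2, the shallowest library, 38 above and 63 below. Among the 6633 genes with a mean of at least 10 CPM, 77 were above and 156 below in both replicates. In that class no gene left the range in replicate 1 alone, and in replicate 2 alone 4 were above and 2 below.

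Differences of at least 2-fold were more frequent among genes of low and moderate abundance. Counting noise is larger in genes with few counts, most of all in replicate 2, and its part in this was not tested. Of the 100 most abundant genes over the 5 libraries, none was called higher in replicates 1 and 2 and 3 were called lower (3%). Of the next 900 genes 19 were higher and 27 lower (2.11% and 3%), and of the other 10489 genes 425 were higher and 938 lower (4.05% and 8.94%). Smaller differences without overlap were at least as frequent among abundant genes, and more of them were higher in the first set. In 68 of the 100 most abundant genes both libraries of the first set lay above all 3 of the second, and in 8 below, with a median log2 difference of 0.29. With library totals alone these counts were 55 and 24, and the median was 0.15. In the next 900 genes 465 lay above and 184 below with TMM, and 319 and 288 with library totals alone. In the other 10489 genes 2688 lay above and 3288 below with TMM.

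The 3 abundant genes that were lower in the first set had a wide range of levels elsewhere. The one furthest apart stood at 932 and 689 CPM in replicates 1 and 2 and at 3210, 3120 and 3450 CPM in replicates 3, 4 and 5. It was at 372 to 1710 CPM in the 21-day line, at 2390 to 2600 CPM in the 12-day and at 6090 to 13400 CPM in the 50-day primary cells. The second stood at 1950 and 1590 CPM against 3910, 4000 and 4110 CPM, and at 61.1 to 1370 CPM at 21 days. It was at 4560 to 5250 CPM in the 12-day and at 4940 to 17600 CPM in the 50-day primary cells. The third stood at 929 and 750 CPM against 1870, 2020 and 2090 CPM, and at 512 to 895 CPM at 21 days. It was at 209 to 232 CPM in the 12-day and at 1130 to 2210 CPM in the 50-day primary cells. In all 3 genes the first set was the closer to the 21-day line. The second set was the closer to the 50-day primary cells in all 3, and inside their range in the last.

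Counts were more concentrated in abundant genes in the first set. The share held by the top 100 genes of each library was 35.4% and 36.1% in replicates 1 and 2, and 31.6%, 32.4% and 33.3% in replicates 3, 4 and 5, without overlap. In the 21-day line it was 25.9% to 32.1%, in the 12-day primary cells 32.2% to 33.8% and in the 50-day primary cells 35.1% to 40.1%. The lists of these genes overlapped by 96 of 100 between replicates 1 and 2, by 96 to 97 within the second set and by 87 to 91 across the sets. At equal depth 12120 and 12225 genes had at least 1 count in replicates 1 and 2, and 12334, 12304 and 12272 in replicates 3, 4 and 5. The called genes themselves held little of the RNA. Those called higher took 2.11% and 2.14% of counts in the first set and 0.819% to 0.83% in the second. Those called lower took 1.69% and 1.36% in the first set and 4.32% to 4.65% in the second.

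The first set lay further than the second from the 21-day line and from both ages of primary cells. The mean rank correlation with the 12-day primary libraries at equal depth was 0.883 and 0.871 in replicates 1 and 2, and 0.908, 0.903 and 0.904 in replicates 3, 4 and 5. With the 50-day WJ libraries it was 0.873 and 0.864 against 0.906, 0.902 and 0.903. With the 50-day BUC libraries it was 0.872 and 0.861 against 0.894, 0.89 and 0.891. With the 21-day line it was 0.925 and 0.917 against 0.937, 0.933 and 0.934. Every library of the first set was below every library of the second in all 4 comparisons, and this held against each of the 18 reference libraries taken singly. The second set was nearest to the 21-day line, as was the first.

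The size of the gap differed between the reference groups. The difference in mean correlation, first set minus second, was -0.0281 for the 12-day cells, -0.0352 for the WJ and -0.0248 for the BUC libraries at 50 days, and -0.0139 for the 21-day line. The 2 sets differed by less in their likeness to the younger line than in their likeness to primary cells. Replicates 3, 4 and 5 were more like WJ than BUC primary cells at 50 days in each library, by 0.906 against 0.894 in replicate 3. In replicate 1 these correlations were 0.873 and 0.872, and in replicate 2 they were 0.864 and 0.861. The root mean square difference in log2 CPM from the 21-day mean was 1.04 and 1.18 in the first set and 0.854, 0.919 and 0.914 in the second. From the 12-day mean it was 1.56 and 1.7 against 1.31, 1.37 and 1.36.

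**Figure D4:**
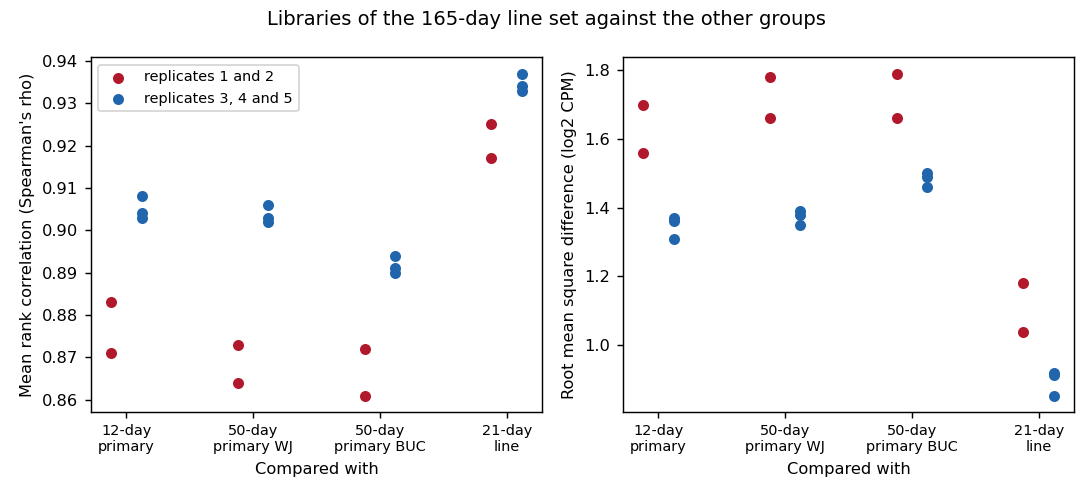
Mean Spearman rank correlation at equal depth (left, y axis) and root mean square difference in log2 CPM at full depth (right, y axis) between each 165-day library and the 4 reference groups (x axis), 1 point per library. The y axes do not start at 0. Replicates 1 and 2 have lower correlations and larger differences than replicates 3, 4 and 5 against every group.

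Gene by gene, the first set was also the further in most cases. Over all 11489 genes its mean level was the further from the 12-day mean in 65.4%, from the 50-day WJ mean in 69%, from the 50-day BUC mean in 66.3% and from the 21-day mean in 64.1%. At equal depth these shares were 64.2%, 67.4%, 64.6% and 62.9%. The mean of the first set rests on fewer libraries and on the shallowest of the group, and the part of this in the shares was not tested. Among the 968 lower genes the first set was the further from the 21-day mean in 743 (76.8%) and from the 12-day mean in 779 (80.5%). Among the 444 higher genes it was the further from the 21-day mean in 250 (56.3%) and from the 12-day mean in 323 (72.7%).

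The higher and the lower genes were placed differently around the 21-day level. For 235 of the 444 higher genes the 21-day mean lay between the sets, for 120 the second set lay between the 21-day mean and the first set, and for 89 the first set was the one in between. For the 968 lower genes these counts were 232, 595 and 141. Over all 11489 genes they were 2047, 6234 and 3208, so the second set was most often in between there, as among the lower genes. Against the whole range of the 9 libraries at 21 days, both libraries of the first set lay above it in 165 higher genes and below it in 656 lower genes. Over all 11489 genes the first set lay above that range in 25.1% and below it in 24.1%. All 3 libraries of the second set lay below it in 126 of the higher genes and above it in 197 of the lower genes, against 20.4% below and 22.5% above over all genes. The share of lower genes with the second set above the range was thus near that of all genes. Most of the lower genes were below the 21-day range in the first set, and 337 of them were below it in the second set too. The lower genes were chosen for a low level in the first set and a high level in the second, and the higher genes for the reverse. The counts of both sets outside the range are thus partly fixed by that choice.

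The 20 genes at least 8-fold higher in the first set had mean levels there of 3.14 to 474 CPM, with a median of 26.4 CPM. In the second set they were at 0.112 to 40.6 CPM. In 17 of the 20 both libraries of the first set were above all 9 libraries at 21 days, and in all 20 above the 3 libraries at 12 days. These genes were chosen for a high level in the first set and a low level in the second. Over all 11489 genes the first set was above the 21-day range in 25.1% and above the 12-day range in 42.1%. The second set was above all 21-day libraries in 5 of these genes, below all in 6 and inside their range in 9. Over all 11489 genes it was above that range in 22.5% and below it in 20.4%. The 10 genes at least 8-fold lower in the first set had means of 4.37 to 459 CPM in the second set and of 0 to 45.3 CPM in the first. These genes were chosen for a high level in the second set and a low level in the first. The second set was above all 21-day libraries in 8 of the 10, against 22.5% of all genes. The first set was inside the 21-day range in 5, above it in 4 and below it in 1, against 25.1% above and 24.1% below over all genes.

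The gene with the largest log2 difference among the higher genes was ENSBTAG00000017312. It stood at 365 and 359 CPM in replicates 1 and 2, and at 5.52, 4.27 and 4.66 CPM in replicates 3, 4 and 5. The lower library of the first set was 65-fold above the highest of the second. Counts pooled over each set gave a ratio of 67.4 (exact 95% interval 57.9 to 78.9, for counting error only). The log2 difference was 6.16. The pooled ratios and limits here and below were scaled by library totals alone. CPM values and log2 differences of the named genes used TMM. At 21 days the gene ranged from 3.32 to 12.1 CPM with a median of 4.92 CPM, a range that holds all 3 libraries of the second set and neither of the first. At 12 days it was at 0.849 to 1.23 CPM. At 50 days it was at 191, 226 and 734 CPM in the WJ libraries and at 15400, 15500 and 21700 CPM in the BUC libraries. The first set was thus inside the range of the 50-day WJ cells, and the second set inside that of the 21-day line.

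ENSBTAG00000001687 was next, with 25.5 and 30 CPM in replicates 1 and 2 and 0.221, 0.382 and 0.325 CPM in replicates 3, 4 and 5. These were 179 and 101 counts against 3, 5 and 3. The sets did not overlap, and the pooled ratio was 79 (exact 95% interval 43.5 to 160). By this ratio it stood above ENSBTAG00000017312, at 67.4, with overlapping intervals. With a smaller prior count, the count added before the log (0.5 in place of 2), the log2 difference was 6.22 in both genes. At 21 days the range was 0.535 to 3.33 CPM, below the first set and above the second. At 12 days it was 0.123 to 0.421 CPM. At 50 days the 3 WJ libraries had no count, and the BUC libraries stood at 4.04, 7.81 and 26.6 CPM.

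Among the lower genes ENSBTAG00000054661 was furthest apart. It had no count in replicates 1 and 2, and 256, 307 and 212 counts in replicates 3, 4 and 5, or 18.9, 23.4 and 23 CPM. The pooled 11732993 counts of the first set allow a level of up to 0.256 CPM (3 counts, for counting error only). Its pooled level in the second set was 83.2-fold above that limit, a ratio that leaves out the counting error of the second set. The other groups were uneven too. At 21 days replicate 6 held 74 counts (14.5 CPM), 5 libraries had none and the other 3 had 1, 1 and 2. At 12 days replicate 2, tagged WJ, held 79 counts and the other 2 libraries none. At 50 days replicate 6, also tagged WJ, held 6 counts and the other 5 libraries none. The gene was thus above 3 CPM in 1 library of each other group and in all 3 of the second set, and at or near 0 elsewhere.

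ENSBTAG00000021928 stood at 0.854 and 0.892 CPM in replicates 1 and 2, from 6 and 3 counts, and at 14.7, 15 and 16.1 CPM in replicates 3, 4 and 5. The pooled ratio of the second set over the first was 19.5 (exact 95% interval 10.2 to 42.9). At 21 days it was at 0.278 to 0.765 CPM and at 12 days at 0.0702 to 0.283 CPM. At 50 days it was at 2.62, 3.27 and 9.57 CPM in the WJ libraries and at 0 to 0.517 CPM in the BUC libraries. Here the second set was above all other libraries of the series. The first set stood near the top of the 21-day range (0.765 CPM, from 11 counts), on too few counts to place it above.

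**Figure D5:**
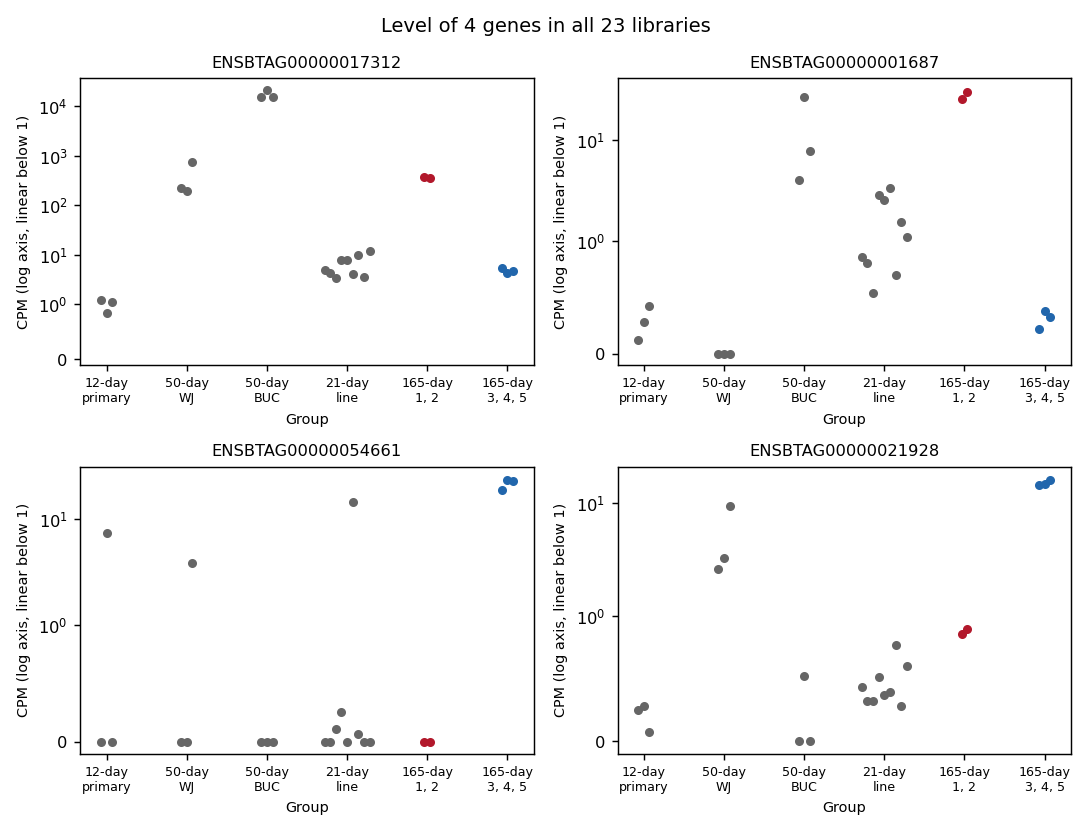
Level of 4 genes (y axis, CPM on a log axis that is linear below 1) in all 23 libraries by group (x axis), 1 point per library, with replicates 1 and 2 of the 165-day line in red and replicates 3, 4 and 5 in blue. The upper genes are at 359 to 365 and 25.5 to 30 CPM in replicates 1 and 2 and below 6 CPM in replicates 3, 4 and 5, and the lower genes are at 0 to 0.892 CPM against 14.7 to 23.4 CPM.

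A few genes were read in every library of one set and in none of the other. Among all 16094 genes, 4 had no count in replicates 1 and 2 and at least 1 CPM in each of replicates 3, 4 and 5 (0.0249%). The reverse was found in 3 genes (0.0186%), for which the 36425637 counts of the second set allow a level of up to 0.0824 CPM. The 4 genes absent from the first set were ENSBTAG00000054661 and 3 others with 158, 54 and 53 counts in the second set. These pooled levels were 17-fold, 5.8-fold and 5.69-fold above the limit of 0.256 CPM for the first set, with their own counting error left out. The gene with 53 counts was read in every one of the 18 reference libraries, with at least 4 counts in each. Replicates 1 and 2 were the only libraries of the series without it. The gene with 158 counts was read in all 3 WJ libraries at 50 days, with 19 to 156 counts, and in none of the BUC or 12-day libraries. At 21 days it had 6 counts in all, over 5 libraries. The gene with 54 counts went the other way at 50 days, with 25 to 120 counts in each BUC library and 3 counts in all in the WJ libraries. It had none at 12 days and 11 counts in all at 21 days.

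The 3 genes absent from the second set were at low levels in the first. They had 20 and 7, 14 and 7, and 14 and 5 counts in replicates 1 and 2. Their pooled levels were 27.9-fold, 21.7-fold and 19.7-fold above the limit for the second set. The counting error of these few counts is not in the ratios. The second of these had no count in any of the 18 reference libraries. The third had 20 to 233 counts in each BUC library and 1 to 2 in each WJ library at 50 days, none at 12 days and 1 count in all at 21 days. With counts this low, each of these genes was near the limit of detection in replicate 2.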

How the data were processed

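The authors' deposited table held raw counts, as whole numbers per Ensembl gene ID, for 16094 genes in 23 columns, each matched to a sample by its title. The tools named in the submitters' processing notes are cutadapt, STAR, HTSeq and DESeq, and the build is ARS-UCD1.2. Versions, the annotation, the use of strand and the handling of molecular identifiers were not given in the sources used here, so overlapping genes may share counts and intervals cover counting error only.

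The low-count filter (filterByExpr on the 4 labelled groups, 11489 genes kept), TMM factors and log2 CPM (prior count 2) were computed over all 23 libraries with edgeR 4.0.16 in R 4.3.3. Calls needed a 2-fold difference of means and no overlap, and no test was made. The calling procedure was first checked on simulated counts with known differences. That check used the same spread in all libraries, whereas the sets differ in theirs, so it gives no rate of false calls here. Libraries were thinned to 1840606 counts without replacement. The sets and all measures were chosen with earlier results of these data known. No gene ID could be given a symbol from the RefSeq table used, so the planned gene lists were not run. Named genes are the 2 called genes with the largest log2 difference in each direction among those with a mean of at least 10 CPM in the higher set.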

Additional observations from a re-analysis of the deposited data

Results flagged for a closer look

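Dixon's ratio was computed for 27 sets of values in groups of 5, 6 or 9 libraries, and chance alone would mark about 1 in 20. The ratio divides the gap between an extreme value and its nearest neighbour by the whole range. Where the libraries of the first set lie near each other and far from the second set, the ratio is low. It therefore does not test the split between the sets. No value of the 165-day line stood apart by this ratio. In the other groups 4 values of the named genes did. ENSBTAG00000054661 was at 14.5 CPM in replicate 6 of the 21-day line, where the other 8 libraries were at or near 0, and at 3.83 CPM in replicate 6 of the 50-day primary cells, where the other 5 had no count. ENSBTAG00000021928 was at 9.57 CPM in that same 50-day library, the shallowest of the series, from 15 counts. ENSBTAG00000001687 was at 26.6 CPM in replicate 3 of the 50-day primary cells, tagged BUC, from 103 counts.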

How the results depend on the processing

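No paired analysis was possible because the sets share no replicate number and no test was made. The first set stayed the further from each reference group under every alternative run. Over genes past the filter the difference in rank correlation was -0.0498, -0.0549 and -0.0263 for 12-day primary, 50-day primary and 21-day cells, with Pearson's r of log2 CPM -0.0514, -0.0553 and -0.0248, and the root mean square difference was larger by 0.284, 0.308 and 0.211. For 50-day cells it was -0.0352 with WJ and -0.0248 with BUC alone. Leaving out each replicate gave -0.0342 to -0.0221, -0.0352 to -0.0249 and -0.0175 to -0.0102. The first component held 55.6% of the variance with unit variance per gene, 84.2% in the 1000 most abundant genes, 71.4% with library totals and 55.3% at equal depth, with gaps of 70.5%, 79.7%, 73.7% and 80.3% of the range. Without each replicate these were 70.5% to 83.4% and 71.2% to 95.3%. Counts of higher and lower genes were 146 and 344 with a mean of at least 10 CPM, 86 and 89 at a fold of 4, and 452 to 672 and 876 to 1369 without each replicate, highest without replicate 1. The first set had 131 fewer genes detected at equal depth, a difference of -905 at full depth, where the first set is shallower, and of -183 to -78.3 without each replicate. The difference in the share of the 100 most abundant genes was 2.89 to 3.76 percentage points without each replicate. The 4 named genes kept their direction in all 36 alternatives, but not their size. At equal depth their log2 differences were 5.73, 4.14, -4.52 and -3.05, against 6.16, 5.6, -6.34 and -3.76 at full depth. For low genes, replicate 2, with 3753231 counts, limits what can be seen. The planned gene lists were not run.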
